A study of Mus musculus with 4 samples.

Results

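The cells described here are CD4 T cells from mouse tumours in which RNA of interferon-gamma (Ifng) and RNA of a type 2 cytokine (Il4, Il5 or Il13) were found in the same cell. They were chosen by their unique molecular identifiers (UMIs, counts of captured RNA molecules). A cell had at least 1 UMI of Cd3d, Cd3e or Cd3g and of Cd4, 0 of Cd8a and Cd8b1, at most 3 of the myeloid genes Lyz2, C1qa, C1qb and Csf1r together, and 0 of Foxp3, and then at least 1 of Ifng and at least 1 of the 3 type 2 cytokines. The rule found 135 such cells, called Ifng+ type 2+ cells below, among 4799 CD4 T cells that passed its first part (the gate) and 20137 barcodes in all. There were 104 in the Tc9 library and 31 in the Tc1 library. The other cells of the gate form 3 classes by the same UMIs: 677 and 173 cells had Ifng only, 588 and 97 had a type 2 cytokine only, and 2353 and 776 had neither, in Tc9 and Tc1.

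The Tc9 group consisted of wild-type, Thy1.2+ B6 mice with chimeric tumours that received Thy1.1+ Pmel-1 Tc9 cells with adjuvant. The Tc1 group consisted of mice of the same kind, with the same tumours, that received Thy1.1+ Pmel-1 Tc1 cells with adjuvant. Tc9 and Tc1 are CD8 T cells cultured to produce IL-9 or interferon-gamma, and Pmel-1 cells carry a transgenic receptor for a melanoma antigen. Tumours of 3 mice per group were pooled on day 30 after inoculation, and CD4 T cells were enriched and sorted, giving 1 RNA and 1 T cell receptor library per group, 4 libraries in all. With 1 pool per group, the difference between treatments and the difference between pools cannot be told apart, and values between groups carry counting error only.

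Helper CD4 T cells commonly take on alternative programmes. Th1 cells make interferon-gamma under the transcription factor T-bet (Tbx21), which activates macrophages and supports cytotoxic responses. Th2 cells make IL-4, IL-5 and IL-13 under GATA-3, which act on B cells, eosinophils and barrier tissues, and each factor is known to restrain the other programme. The type 2 genes lie side by side in the mouse genome (GRCm38): Il4 on chromosome 11 at 53612460 to 53618665, Il13 at 53631323 to 53634702 and Il5 at 53720794 to 53725103, with Rad50 between the last pair, at 53649519 to 53707319. Ifng lies on chromosome 10 at 118441046 to 118445894.

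The RNA libraries held 50713493 UMIs in Tc9 and 106053410 in Tc1, and the filters kept 8204 of 8449 and 11933 of 13406 barcodes. Gate cells of Tc9 were deeper, with a median of 5427.5 UMIs against 3369 in Tc1. Myeloid RNA in gate cells also differed. A UMI of the 4 myeloid genes was found in 8 of 104 Ifng+ type 2+ cells of Tc9 (7.69%) but 17 of 31 of Tc1 (54.8%). The other classes had 2.42% to 3.74% in Tc9, less than the Ifng+ type 2+ cells, and 47.4% to 56.1% in Tc1. Cells of the other classes with matched total UMIs had 0% to 3.85% in Tc9 and 45.2% to 51.6% in Tc1. Whether these UMIs came from free RNA or from doublets was not tested. Against the label of a CD4 T cell sort, 24 kept barcodes of Tc9 and 2908 of Tc1 had no Cd3 UMI and at least 10 UMIs of the myeloid genes. The 2 RNA libraries shared 148 barcodes. Barcodes of 3 Tc9 Ifng+ type 2+ cells also occurred in the Tc1 library, and none of the Tc1 ones occurred in Tc9.

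The Ifng+ type 2+ cells made up 2.79% of the gate in Tc9 (exact Clopper-Pearson 95% interval 2.29 to 3.38) and 2.88% in Tc1 (1.96 to 4.06). Ifng was found in 20.98% of gate cells in Tc9 and 18.9% in Tc1, and a type 2 cytokine in 18.6% and 11.9%. After thinning every cell to 2000 UMIs, which left out 99 and 95 shallower cells, the Ifng+ type 2+ share was 0.662% in Tc9 (0.425 to 0.984) and 1.22% in Tc1 (0.633 to 2.12), and these intervals overlap. At that depth Ifng was found in 11.2% and 11.7% and a type 2 cytokine in 10.6% and 8.25%. In myeloid barcodes (no Cd3 UMI, at least 10 of the 4 myeloid genes), which should lack both kinds of cytokine, Tc1 had Ifng in 0.860% and a type 2 cytokine in 0.275% of 2908 barcodes with a median of 7361 UMIs. No myeloid barcode of Tc1 had both kinds, which allows up to 0.103%. Tc9 had 24 myeloid barcodes with a median of 2200 UMIs, of which 1 had Ifng, 1 had a type 2 cytokine and 0 had both, which allows up to 12.5%.

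In Tc9, Ifng and type 2 cytokines met in the same cell less often than their separate frequencies give, and in Tc1 no shortage was seen. Deep cells show any pair of genes more often, so the expected number was summed over 10 bins of total UMIs, taking the genes as independent inside each bin. Tc9 had 104 Ifng+ type 2+ cells against 155 expected, a ratio of 0.669 (exact Poisson 95% interval 0.547 to 0.811). Inside TRB clonotypes in place of depth bins, the Tc9 ratio was 0.817 (0.596 to 1.09), an interval that reaches above 1. That ratio used the 45 such cells with exactly 1 receptor beta chain (TRB). Tc1 had 31 against 25.6 expected, a ratio of 1.21 (0.823 to 1.72). With 1 library per group no test was possible. The intervals cover counting error in the observed number only.

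**Figure D1:**
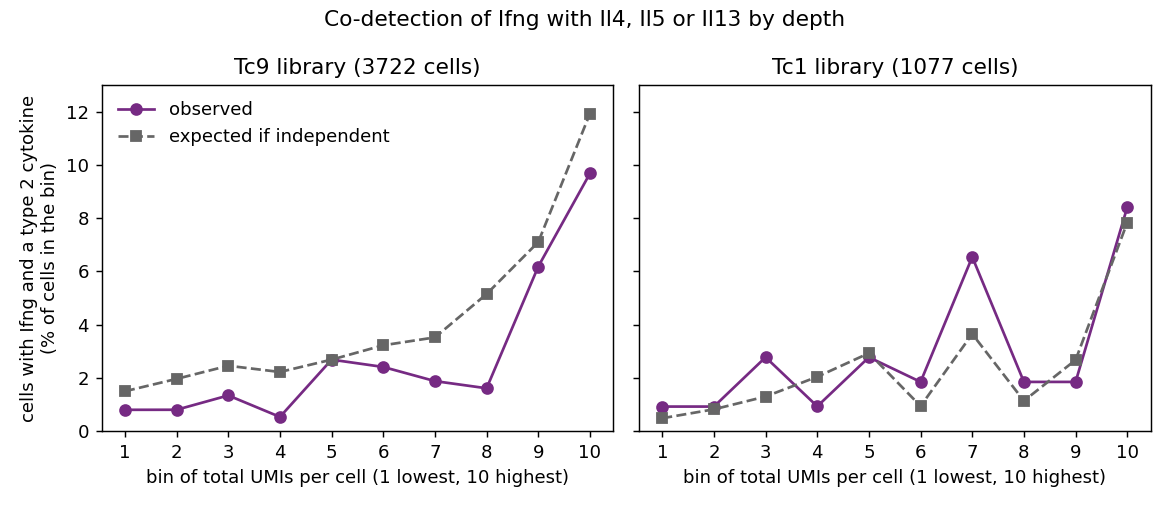
Percent of gate cells with both Ifng and a type 2 cytokine (purple circles) and the percent expected if the genes were detected independently (grey squares), by bin of total UMIs per cell, in Tc9 (left) and Tc1 (right). In Tc9 the observed share lies at or under the expected share in all 10 bins, reaching 9.68% against 11.9% in the deepest, while in Tc1 the observed share lies above it in some bins and under it in others.

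The plot of co-detection by depth shows the Tc9 values at or under the expected number at every depth. The deepest Tc9 bin held 36 Ifng+ type 2+ cells against 44.4 expected, and the next held 23 against 26.4. In the eighth bin, 6 were seen against 19.2 expected. The deepest Tc1 bin held 9 against 8.38, and the rest of the Tc1 bins held 1 to 7 cells each.

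Seen from the other side, a type 2 cytokine was found in 13.3% of Tc9 cells with Ifng (11.01 to 15.9) and in 19.99% of those without (18.6 to 21.5). In Tc1 the shares were 15.2% (10.6 to 20.9) and 11.1% (9.10 to 13.4). Among Tc9 cells with at least 5 Ifng UMIs, 12 of 75 had a type 2 cytokine, and among those with at least 5 type 2 UMIs, 23 of 155 had Ifng. Tc1 had 4 of 24 and 3 of 12 such cells, too few to set an order.

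Each type 2 cytokine showed the shortage in Tc9. Observed over expected co-detection with Ifng was 0.684 for Il4 (0.533 to 0.866), 0.552 for Il5 (0.389 to 0.761) and 0.543 for Il13 (0.363 to 0.779). The type 2 cytokines met each other more often than expected, at 2.46 for Il4 with Il5, 3.15 for Il4 with Il13 and 3.98 for Il5 with Il13, each with an interval above 1. In Tc1 the 3 cytokines differed among themselves: Il4 met Ifng in 24 cells against 14.3 expected (1.68, interval 1.08 to 2.51), Il5 in 7 against 10.7 (0.655, 0.263 to 1.35) and Il13 in 1 against 5.00 (0.1999, 0.00506 to 1.11). Il5 with Il13 in Tc1 reached 5.78 (2.33 to 11.9).

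**Figure D2:**
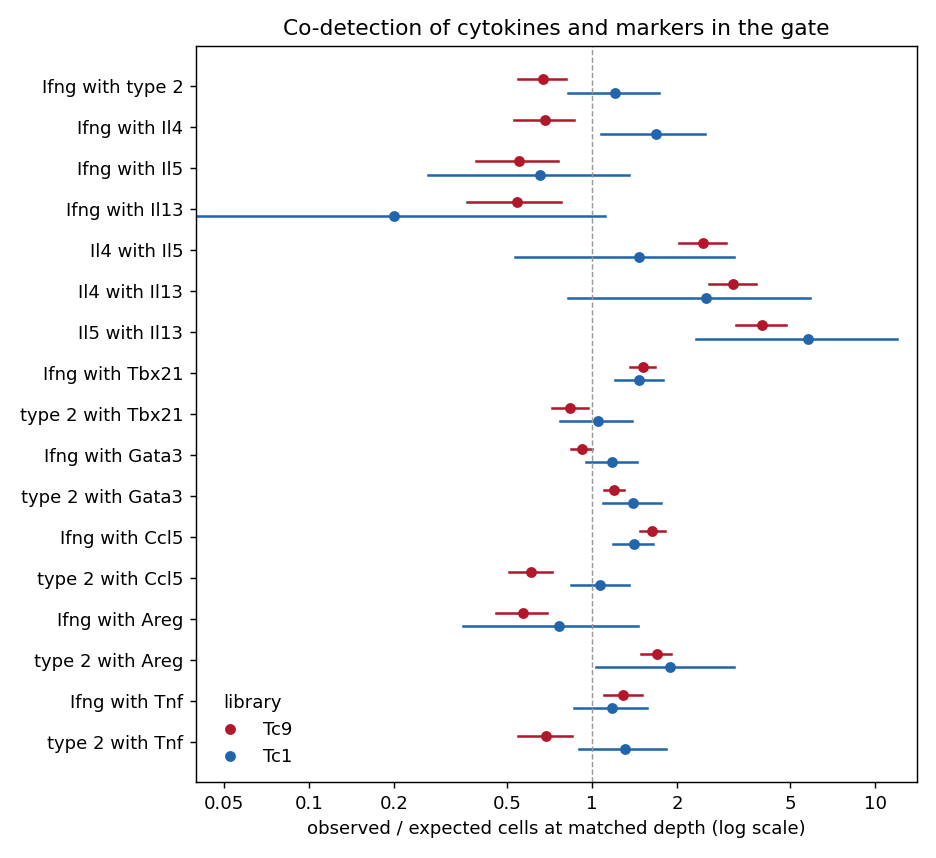
Observed over expected number of gate cells with both genes of a pair (log scale, 1 marks independence at matched depth) in Tc9 (red, upper of each pair) and Tc1 (blue, lower), with exact Poisson 95% intervals; the Tc1 interval for Ifng with Il13 runs below the axis. Ifng with type 2 cytokines stands at 0.669 in Tc9 and 1.21 in Tc1, and pairs of type 2 cytokines stand at 1.46 to 5.78.

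The other genes of the plot of pairs give a scale for these ratios. Ifng met Tbx21 more often than expected in Tc9 (1.51, 1.36 to 1.67) and Tc1 (1.47, 1.21 to 1.78), and type 2 cytokines met Gata3 more often in Tc9 (1.20, 1.10 to 1.30) and Tc1 (1.39, 1.09 to 1.75). The chemokine gene Ccl5 went with Ifng, at 1.63 in Tc9 and 1.402 in Tc1, and stood at 0.611 with type 2 cytokines in Tc9 and 1.07 in Tc1. Amphiregulin (Areg), a growth factor made by Th2 cells, went with type 2 cytokines at 1.69 in Tc9 and 1.89 in Tc1, and stood at 0.569 and 0.765 with Ifng. Tnf met Ifng at 1.29 and type 2 cytokines at 0.689 in Tc9, against 1.18 and 1.30 in Tc1. Il2, made early after T cell receptor signalling, stood at 1.02 with Ifng and 0.961 with type 2 cytokines in Tc9, and at 1.07 and 1.49 in Tc1, with every interval reaching across 1.

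Within the Ifng+ type 2+ cells most counts were low. Exactly 1 UMI of each kind was found in 23 of 104 Tc9 cells and 12 of 31 Tc1 cells, and 78 of 104 and 27 of 31 rested on 1 UMI for at least 1 of the kinds. At least 2 UMIs of each kind were found in 26 and 4 cells, at least 3 of each in 6 and 0, and at least 5 of each in 1 and 0. In Tc9, 34 cells had more Ifng than type 2 UMIs, 39 had fewer and 31 had equal numbers, against 8, 10 and 13 in Tc1. The highest Tc9 cell by type 2 UMIs had 73, of which 57 were Il4 and 16 Il13, beside 1 Ifng UMI, and the next had 30 beside 4. The highest by Ifng had 19 beside 2 Il4 UMIs, and the highest Tc1 cells had 10 Il5 UMIs beside 1 of Ifng and 18 Ifng UMIs beside 1 of Il4. Across cells, Spearman's rho of Ifng and type 2 UMIs was -0.145 in Tc9 (104 cells) and -0.112 in Tc1 (31 cells), a description in sparse counts of cells that share a library.

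**Figure D3:**
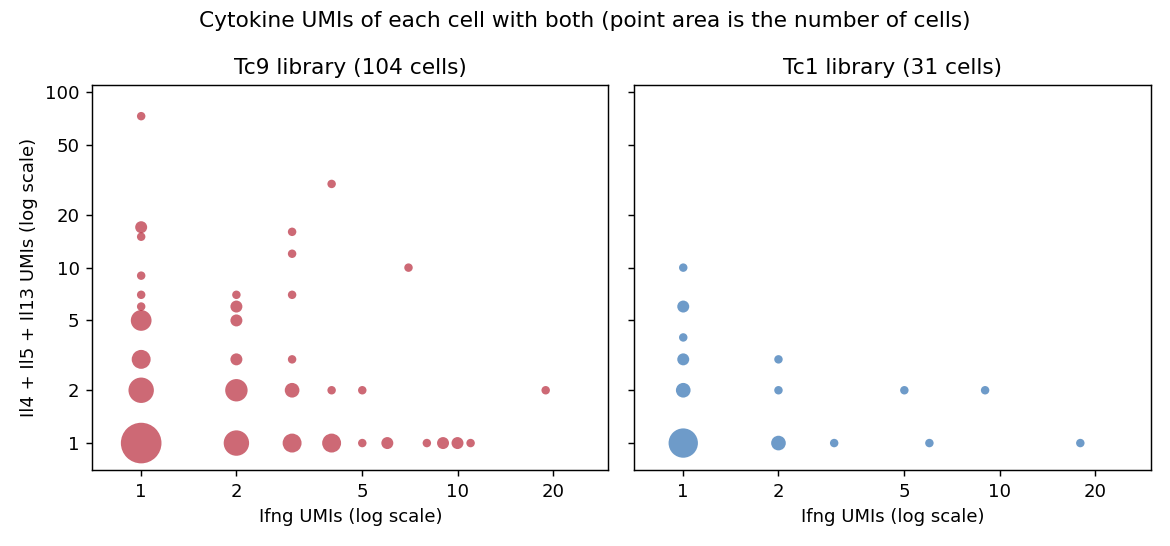
UMIs of Ifng (horizontal, log scale) and of Il4, Il5 and Il13 together (vertical, log scale) in each Ifng+ type 2+ cell of Tc9 (left, 104 cells) and Tc1 (right, 31 cells), with point area in proportion to the number of cells at that position. Most cells lie along the 2 edges, with 1 UMI of one kind, and 1 Tc9 cell has at least 5 of each.

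As the plot of UMIs per cell shows, 1 Tc9 cell had at least 5 UMIs of each kind. High counts of either kind were rare in themselves. Of 3722 Tc9 gate cells, 75 had at least 5 Ifng UMIs and 155 at least 5 type 2 UMIs. Whether such counts met less often than independence gives was not tested. Levels were compared with cells of the other classes matched 1 for 1 on total UMIs, as CPM (counts scaled to the same total of UMIs in each sum). Ifng stood at 286 CPM in Ifng+ type 2+ cells and 276 in matched Ifng-only cells of Tc9, and at 410 and 353 in Tc1. Il4 stood at 209 CPM in Ifng+ type 2+ cells and 155 in matched type-2-only cells of Tc9, and at 233 and 147 in Tc1. In Tc9, 1 cell held 29.4% of the Il4 UMIs of the Ifng+ type 2+ cells. Il5 and Il13 were lower in Ifng+ type 2+ cells, at 71.2 and 175 CPM for Il5 and 148 and 284 for Il13 in Tc9, and at 22 and 34 UMIs for Il5 and 2 and 15 UMIs for Il13 in Tc1. Over whole classes, which are shallower, Ifng-only cells had 348 CPM of Ifng in Tc9 and 486 in Tc1, above the Ifng+ type 2+ cells. Whole type-2-only cells had 222 CPM of Il4 in Tc9, above the Ifng+ type 2+ cells, and 159 in Tc1, below them. The order of the Ifng levels, and that of Il4 in Tc9, thus depended on depth matching. Since these UMIs set the classes, the levels are a description.

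Il4 was the usual partner of Ifng. Of the 104 Tc9 cells, 47 had Il4 alone of the 3, 20 had Il5 alone, 13 had Il13 alone and 7 had all 3, and the rest had a pair. Of the 31 Tc1 cells, 23 had Il4 alone, 6 Il5 alone, 1 Il13 alone and 1 Il4 with Il5. Il4 was found in 66.3% of Ifng+ type 2+ cells and 62.9% of type-2-only cells in Tc9, and in 77.4% (58.9 to 90.4) and 46.4% (36.2 to 56.8) in Tc1. Il13, which the name of the population includes, was found in 27.9% and 33.7% in Tc9, but in 1 of 31 (3.23%) Ifng+ type 2+ cells and 20.6% of type-2-only cells in Tc1, so the Tc1 cells are in practice cells with Ifng and Il4 or Il5.

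Values near the limits of the rule were as follows. Another 41 barcodes in Tc9 and 12 in Tc1 had both kinds of cytokine and failed only on Cd4, while 35 and 19 Ifng+ type 2+ cells had exactly 1 Cd4 UMI. Those that failed only on Cd8a and Cd8b1 numbered 17 and 12. The myeloid limit alone removed 1 and 15, with a median of 4 and 56 myeloid UMIs, and Foxp3 alone removed 5 and 2. In all, 201 kept barcodes in Tc9 and 128 in Tc1 had both kinds of cytokine.

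For comparison with cells that had 1 of the kinds only, each Ifng+ type 2+ cell was matched to the nearest cell in total UMIs of each other class in its library. The matched sums agreed in depth: 926444 UMIs in Ifng+ type 2+ cells of Tc9 and 914654 to 918223 in the other classes, and 175820 and 170074 to 175437 in Tc1. Counts were tested with edgeR's quasi-likelihood test with library as a block and Benjamini-Hochberg adjustment over 6850 genes, without the genes of the rule and of receptor segments. The libraries serve as the replicates, and they come from different treatments. The block takes out the difference between the libraries that all classes share. The p-values thus rest on how far differences between classes varied between these 2 libraries, counting noise included, over all classes in the fit.

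Against Ifng-only cells, Ifng+ type 2+ cells carried more RNA of several genes known from Th2 cells and of the stress genes Hilpda and Atf3. Depth-matched cells with neither cytokine also lay above Ifng-only cells in Tc9, at 218 CPM for Il1rl1, 72.1 for Pparg and 432 for Areg. A higher level of these genes was thus not particular to Ifng+ type 2+ cells. For Calca, neither cells had 4.37 CPM in Tc9 and 74.1 in Tc1. Neither cells had 154 CPM of Hilpda and 51.3 of Atf3 in Tc9, and 205 and 171 in Tc1, below Ifng+ type 2+ cells. The test called 10 genes (0.146% of those tested), 8 higher and 2 lower, with 337 at an unadjusted p under 0.05. Among 6850 genes, that threshold gives about as many with no difference at all. DESeq2 called 2, Hilpda and Atf3. Removing all cells with at least 10 UMIs of H2-Aa, a class II gene of antigen-presenting cells, among them 1 Tc1 Ifng+ type 2+ cell with 93 of the class's 99 H2-Aa UMIs, gave 24 calls, which included 9 of the 10.

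Il1rl1, the IL-33 receptor chain ST2, had 251 CPM in Ifng+ type 2+ cells and 45.9 in Ifng-only cells of Tc9, and 96.7 and 57.8 in Tc1. It rose by 2.07 on the log2 scale (SE 0.34, edgeR adjusted p = 0.012), and was found in 66 against 19 of 104 matched Tc9 cells and 11 against 6 of 31 Tc1 cells. Pparg, a nuclear receptor used by Th2 cells, had 82.0 and 15.3 CPM in Tc9 and 3 and 2 UMIs in Tc1 (log2 2.19, SE 0.43, edgeR adjusted p = 0.0383). Hilpda, a lipid droplet protein induced by low oxygen, had 234 and 54.7 CPM in Tc9 and 438 and 92.5 in Tc1 (log2 2.16, SE 0.24, edgeR adjusted p = 7.68e-05). Atf3, a transcription factor induced by stress and by cell dissociation, had 117 and 31.7 CPM in Tc9 and 228 and 28.9 in Tc1 (log2 2.15, SE 0.34, edgeR adjusted p = 0.00812). Hilpda and Atf3 were thus higher in both libraries, Il1rl1 by a smaller margin in Tc1 than in Tc9, and Pparg had too few UMIs in Tc1 to show a direction there. Hilpda and Atf3 were called under each of the 11 other settings that were run. In the second set of matched cells 4 of the 10 calls were made again, Calca, Pparg, Hilpda and Atf3, and Il1rl1 was not.

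Acvr2a, an activin receptor, had 191 and 63.4 CPM in Tc9 and 16 and 6 UMIs in Tc1 (log2 1.56, edgeR adjusted p = 0.0225). Areg, Ccl1, Calca and Fabp4 rested on few cells or on 1 library. Areg had 364 CPM in Ifng+ type 2+ cells and 60.1 in Ifng-only cells of Tc9 but 0 UMIs in both classes of Tc1, where type-2-only cells had 182, so its call (edgeR adjusted p = 0.0258) came from Tc9. Ccl1, a chemokine for the Th2 receptor CCR8, had 185 and 7.65 CPM in Tc9, with 58.5% of the UMIs in 1 of 11 cells, and 1 UMI in each class of Tc1. Calca, the precursor of the neuropeptide CGRP, had 27 UMIs in 7 Ifng+ type 2+ cells and 0 in Ifng-only cells of Tc9, and 12 UMIs in 3 cells and 1 UMI in Tc1. Lower were the noncoding gene Gm2682, at 329 and 618 CPM in Tc9 and 239 and 503 in Tc1 (log2 -0.95, edgeR adjusted p = 0.0403), and Fabp4, whose Tc9 UMIs came from 1 cell in each class.

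**Figure D4:**
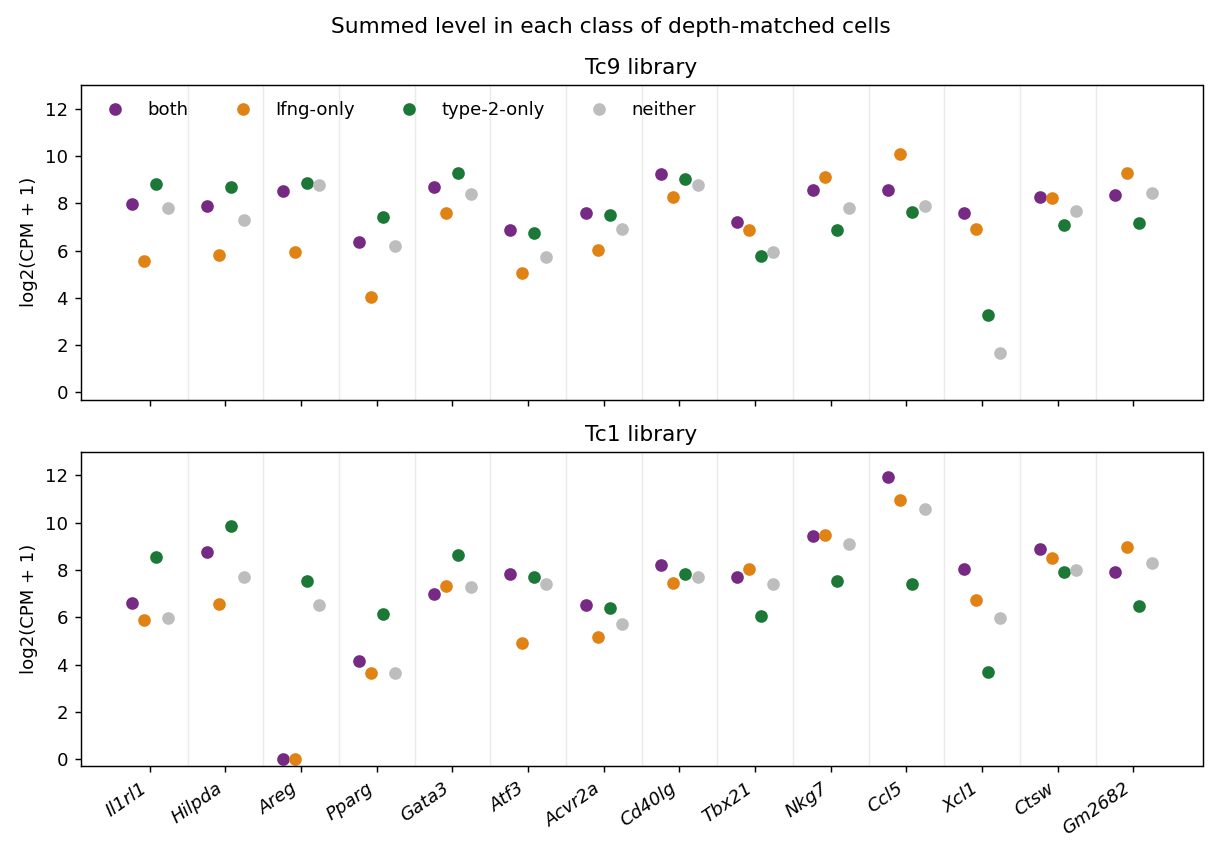
Summed level of selected genes, as log2(CPM + 1), in depth-matched Ifng+ type 2+ (purple), Ifng-only (orange), type-2-only (green) and neither (grey) cells of Tc9 (top) and Tc1 (bottom). For Il1rl1, Hilpda, Pparg and Gata3 in Tc9 the Ifng+ type 2+ cells lie above the Ifng-only and below the type-2-only cells, and so do neither cells. For Nkg7, Tbx21 and Ctsw the Ifng+ type 2+ cells lie above the type-2-only cells in each library.

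Against type-2-only cells, Ifng+ type 2+ cells carried more RNA of Tbx21 and of cytotoxic and chemokine genes that accompany Ifng. Depth-matched neither cells had 222 CPM of Nkg7 and 61.1 of Tbx21 in Tc9, and 553 and 171 in Tc1, also above type-2-only cells. The test called 23 genes (0.336%), 12 higher and 11 lower, with 358 at an unadjusted p under 0.05. That number is again close to what the threshold gives with no difference at all. DESeq2 called 8, and leaving out cells with at least 10 H2-Aa UMIs gave 37 calls, which included 20 of the 23. A second set of depth-matched cells gave 10 calls, 5 of them among the 23, so the identity of most calls depended on which cells were matched. Those 5 were Ccl4, Serpinb6b, Nkg7, Cxcl2 and Lgals7, and Tbx21, Xcl1, Ccl5 and Ctsw were not among them.

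Nkg7, a protein of cytotoxic granules, had 372 CPM in Ifng+ type 2+ cells and 114 in type-2-only cells of Tc9, and 688 and 182 in Tc1. It rose by 1.74 on the log2 scale (SE 0.23, edgeR adjusted p = 0.000253) and was called under each of the 11 other settings. Tbx21 had 145 and 53.4 CPM in Tc9 and 210 and 64.7 in Tc1 (log2 1.44, SE 0.29, edgeR adjusted p = 0.0285), in 59 against 31 of 104 Tc9 cells and 16 against 8 of 31 Tc1 cells. Xcl1, a chemokine for cross-presenting dendritic cells, had 189 and 8.71 CPM in Tc9 and 262 and 11.8 in Tc1 (log2 4.34, SE 0.57, edgeR adjusted p = 0.000253), in 11 and 12 Ifng+ type 2+ cells. The plot of levels by class shows these 3 genes above the type-2-only cells in both libraries. Ctsw, a protease of cytotoxic lymphocytes, had 307 and 136 CPM in Tc9 and 478 and 241 in Tc1 (log2 1.06, edgeR adjusted p = 0.0234).

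Ccl5 rose against type-2-only cells (log2 2.44, SE 0.48, edgeR adjusted p = 0.0234), with 376 and 199 CPM in Tc9 and 3885 and 171 in Tc1. Against Ifng-only cells it went opposite ways in the libraries, at 376 and 1097 CPM in Tc9 and 3885 and 1994 in Tc1, and was not called (log2 -0.18, edgeR adjusted p = 0.999). The highest Ccl5 cell held 24.7% of the UMIs of the Ifng+ type 2+ cells in Tc9 and 35.4% in Tc1. Ccl4, a chemokine, was called, but all its 61 UMIs in Ifng+ type 2+ cells of Tc9 came from 1 cell and 89.5% of the 38 in Tc1 from another. The other higher calls were Serpinb6b, Gimap7, Hsd11b1, Gm2682, Gimap4 and Ms4a4b, at log2 0.86 to 2.35. GIMAP proteins are GTPases of lymphocyte survival.

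Lower than in type-2-only cells were Hilpda (log2 -0.98, edgeR adjusted p = 0.0256), Ltb4r1, a leukotriene receptor (log2 -1.44, edgeR adjusted p = 0.0456), Tnfsf8, the CD30 ligand (log2 -1.37, edgeR adjusted p = 0.0234), Ctla2a, Emb, Peak1, Lgals7, Hlf, Igfbp4 and Cxcl2. Ltb4r1 had 101 and 198 CPM in Tc9 and 68.3 and 359 in Tc1, and Tnfsf8 had 169 and 362 and 39.8 and 200. Hilpda was thus above the Ifng-only and below the type-2-only cells in each library. The last call, the red cell gene Hbb-bs, came from 1 Tc1 type-2-only cell with 5399 haemoglobin UMIs, and without such cells 22 genes were called. Cxcl2 had 2 UMIs in Ifng+ type 2+ cells of Tc9 against 253 CPM in type-2-only cells, and 51.2 and 353 CPM in Tc1.

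The lineage lists followed the 2 comparisons in opposite senses. Over all 6850 genes tested, 0.146% were called against Ifng-only cells and 0.336% against type-2-only cells. Against Ifng-only cells, 4 of 14 tested Th2 genes rose (Il1rl1, Areg, Pparg and Calca) and 0 fell. The median log2 of the 14 was 0.71, against -0.001 over all genes. Of 16 Th1 genes, 0 passed in either direction (median -0.23). Against type-2-only cells, 3 of 16 Th1 genes rose (Tbx21, Ccl5 and Nkg7) and 0 fell (median 0.38). Of 14 Th2 genes, 0 passed (median -0.45, against 0.005 over all genes). The Th2 list summed to 2417 CPM in Ifng+ type 2+, 1102 in Ifng-only and 2087 in neither cells of Tc9. In Tc1 it summed to 967, 890 and 1129 CPM, lower in Ifng+ type 2+ than in neither cells. The Th1 list summed to 3478 CPM in Ifng+ type 2+ and 2652 in neither cells of Tc9, and to 7343 and 4252 in Tc1. Without cells of at least 10 H2-Aa UMIs, Il1rl1 (log2 -1.26, edgeR adjusted p = 0.0207) and Gata3 (log2 -0.98, edgeR adjusted p = 0.0476) were called lower than in type-2-only cells. Of 8 cytotoxic genes 2 rose against type-2-only cells (Nkg7 and Ctsw, median 0.92) and 0 passed against Ifng-only cells (median -0.06).

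Genes of T cell receptor signalling and activation did not pass in either comparison, at 0 of 22. Over all genes, 0.146% were called against Ifng-only cells and 0.336% against type-2-only cells. At those shares, 0 calls in a list this short do not set it apart from other genes. Their median was 0.40 against Ifng-only cells, with 19 of 22 above 0, and -0.04 against type-2-only cells. Cd40lg, the ligand by which helper cells license B cells and dendritic cells, had 596 CPM in Ifng+ type 2+ cells and 310 in Ifng-only cells of Tc9 and 296 and 173 in Tc1 (log2 0.90, edgeR adjusted p = 0.0599). Nr4a1, an immediate gene of receptor signalling, had 589 and 358 CPM in Tc9 and 415 and 214 in Tc1 (log2 0.83, edgeR adjusted p = 0.117). The 13 glycolysis genes had a median of 0.19 against Ifng-only cells and -0.40 against type-2-only cells, where all 13 lay below 0, and 0 passed. Cell cycle genes, type I interferon genes, inhibitory receptors and Tfh, Th17 and Treg genes gave 0 calls in either comparison. These lists are too short for that to differ from the share over all genes, and the Th17 list had 2 tested genes.

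The lineage factors were each detected in many Ifng+ type 2+ cells. Gata3 was found in 87 of 104 cells in Tc9 and 15 of 31 in Tc1, and Tbx21 in 59 and 16. Cells with UMIs of each factor numbered 49 of 104 Ifng+ type 2+ cells in Tc9, against 44 Ifng-only, 28 type-2-only and 20 neither cells at matched depth. In Tc1 they numbered 10 of 31, against 15, 7 and 5. If the factors were independent, their separate frequencies would give about the 49 seen in Tc9, and fewer than the 10 seen in Tc1. The exact intervals of the Ifng+ type 2+ and Ifng-only shares overlap in each library, so a co-detection of both factors beyond that of Ifng-only cells was not detectable at this depth. Gata3 had 408 CPM in Ifng+ type 2+ cells of Tc9, against 194 in Ifng-only, 619 in type-2-only and 332 in neither cells. In Tc1 it had 125 CPM, against 162, 400 and 154. Gata3 was not called against Ifng-only cells (log2 0.69, edgeR adjusted p = 0.67) nor against type-2-only cells (log2 -0.95, edgeR adjusted p = 0.0859). Tbx21 was not called against Ifng-only cells (log2 0.08, edgeR adjusted p = 0.999).

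To see where Ifng+ type 2+ cells lie between the other classes, genes that differed between Ifng-only and type-2-only cells were taken from the second set of matched cells (101 of 7011, or 1.44%) and looked up in the first set. The Ifng+ type 2+ cells are the same in each set, and this was added after the data were seen, so the values are a description. The 79 genes higher in type-2-only cells had a median log2 of 0.94 in Ifng+ type 2+ over Ifng-only cells and of -0.71 in Ifng+ type 2+ over type-2-only cells. Their summed level was 17188 CPM in Ifng+ type 2+ cells of Tc9, against 9690 in Ifng-only, 23208 in type-2-only and 13585 in neither cells. In Tc1 it was 14031, against 11419, 21314 and 11862 CPM. The Ifng+ type 2+ level lay between the classes for 64 of the 79 genes in Tc9 and 46 in Tc1, but cells with neither cytokine did so for 65 and 46. An intermediate level was thus as frequent in cells with neither cytokine.

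The 20 genes higher in Ifng-only cells had a median log2 of -0.35 in Ifng+ type 2+ over Ifng-only cells and of 1.10 over type-2-only cells. Their summed level was 2446 CPM in Ifng+ type 2+ cells of Tc9, against 4296, 1499 and 2015 in Ifng-only, type-2-only and neither cells. In Tc1 it was 7303 CPM, against 5958, 1541 and 4913. Ccl5 set this Tc1 order: without it the sum was 3418 CPM in Ifng+ type 2+ cells, against 3964, 1370.0 and 3392. Cxcr3, the chemokine receptor of Th1 cells, had 74.5 CPM in Ifng+ type 2+ cells, 139 in Ifng-only and 33.8 in type-2-only cells of Tc9, and 142, 179 and 64.7 in Tc1.

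The levels of 3 neighbours of the type 2 cytokine genes were ordered by class. Rad50, whose gene body in mice holds the locus control region of these cytokines, had 106 CPM in Ifng+ type 2+ cells, 50.3 in Ifng-only and 142 in type-2-only cells of Tc9, and 85.3, 40.5 and 147 in Tc1. Aff4, at 53350640 to 53421830 on the same chromosome, had 239, 128 and 329 CPM in Tc9 and 96.7, 86.7 and 223 in Tc1. Zcchc10, at 53324689 to 53333301, had 37.8, 19.7 and 80.6 CPM in Tc9 and 28.4, 11.6 and 112 in Tc1. The order was the same for each of these genes in each library, with Ifng+ type 2+ cells between Ifng-only and type-2-only cells. Neither cells also lay between, at 54.6 CPM for Rad50, 188 for Aff4 and 31.7 for Zcchc10 in Tc9 and 74.1, 108 and 39.9 in Tc1, where they were above the Ifng+ type 2+ cells for Aff4 and Zcchc10. None passed in Ifng+ type 2+ against Ifng-only cells (log2 0.73 to 1.06, edgeR adjusted p = 0.258 to 0.92) or against type-2-only cells. Of the 7 tested genes within 500 kb of the cytokine genes, all 7 lay above 0 against Ifng-only cells (median 0.37), and the other 4, Uqcrq, Gm12216, Hspa4 and Irf1, had log2 0.07 to 0.37. Against type-2-only cells 2 of the 7 lay above 0, Uqcrq and Gm12216. These genes were picked after their values were seen.

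Markers of other cells gave the following levels in the matched sums. The 7 macrophage markers summed to 24.8 CPM in Ifng+ type 2+ cells of Tc9 and 12.0 to 16.3 in the other classes, and to 290 and 239 to 276 in Tc1. Dendritic cell markers summed to 42.1 CPM and 66.7 to 484 in Tc9, and to 1541 and 358 to 4446 in Tc1. Mast cell and basophil markers, whose cells also make Il4, were at 0 in Ifng+ type 2+ cells for 5 of 6 genes in each library, and the sixth, Hdc, gave 5.40 CPM in Tc9 and 5.69 in Tc1, while type-2-only cells had 68.6 and 82.3 CPM of the list. B cell markers summed to at most 2.16 CPM in Ifng+ type 2+ cells. Melanoma markers summed to 0 in Ifng+ type 2+ cells of Tc9 and 1.09 to 5.46 CPM in the other classes. In Tc1 they summed to 119 CPM in Ifng+ type 2+ cells, above the 52.0 to 82.3 of the other classes. The part of RNA from other cells in the co-detection was not tested, beyond the ratio in cells with 0 UMIs of the 4 myeloid genes. That ratio was 0.654 in Tc9 and 1.18 in Tc1.

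Between the groups, Ifng+ type 2+ cells of Tc9 had more Gata3, Il1rl1 and Areg RNA than those of Tc1, and less Ccl5, and cells with neither cytokine differed in the same directions. These are ratios of 2 summed profiles of 926444 and 175820 UMIs, with exact conditional intervals for counting error and no test. Of 3647 genes with at least 50 CPM in 1 of the libraries, 756 were at least 1.5-fold higher in Tc9 (20.7%) and 944 at least 1.5-fold lower (25.9%). The split moved with the setting, to 833 and 860 with TMM factors, 944 and 1459 after thinning, and 877 and 1343 without cells that had a myeloid UMI. Of these 1700 genes, 1326 differed in the same direction in cells with neither cytokine and 779 by at least 1.5-fold.

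The 4 cytokines chose the cells, and a rule of at least 1 UMI raises the CPM of shallower cells, so their levels are given as a description. Ifng had 286 CPM in Tc9 and 410 in Tc1, Il4 209 and 233, Il5 71.2 and 125, and Il13 137 UMIs in 29 cells of Tc9 and 2 UMIs in 1 cell of Tc1. Gata3 had 408 CPM in Tc9 and 125 in Tc1 (log2 1.71, 1.09 to 2.40), and in neither cells 332 and 154 (log2 1.11). Tbx21 had 145 and 210 CPM (log2 -0.54, -1.08 to 0.03), and after thinning to equal depth its ratio turned to 0.29 (42 and 10 UMIs), so no direction is given for it. Areg had 337 UMIs in 32 cells of Tc9 and 0 in Tc1, a log2 ratio of at least 4.41 against a floor of 3 counts per library, and in neither cells 432 and 91.2 CPM (log2 2.25). Il1rl1 had 251 and 96.7 CPM (log2 1.38, 0.67 to 2.18), and in neither cells 218 and 62.7 (log2 1.80). After thinning, the Il1rl1 ratio was smaller, at 0.71 from 45 and 8 UMIs, while that of Gata3 was 1.90 from 90 and 7 UMIs. Il31ra, a receptor for a Th2 cytokine, had 348 CPM in 69 Tc9 cells and 22.8 in 4 Tc1 cells (log2 3.93, 2.56 to 5.82). Ccl5 had 376 and 3885 CPM (log2 -3.37, -3.56 to -3.18), and in neither cells 233 and 1522 (log2 -2.71). Without cells that had a myeloid UMI the Ccl5 ratio was -1.80 (308 and 75 UMIs). Il31ra also differed in the same direction in neither cells (log2 2.79), as did most genes.

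Other genes with the highest Tc9 over Tc1 ratios were Ccl1, Cdk6, Klf12, Ikzf2, Mid1 and Pim2, at log2 3.30 to 5.02 with 1 or 2 UMIs each in Tc1. Their intervals were wide, such as 2.52 to 10.3 for Ccl1 and 0.76 to 8.63 for Pim2. In neither cells the log2 ratio went the other way for Ccl1 (-2.97, from 6 and 9 UMIs), Ikzf2 (-0.64) and Pim2 (-1.31). It was 0.08 for Cdk6, 0.97 for Klf12 and 1.55 for Mid1 in those cells. Among the lowest, H2-Aa had 5.40 CPM in Tc9 and 563 in Tc1 (log2 -6.71), with 93.9% of the Tc1 UMIs in 1 cell. Fscn1, an actin bundling protein of mature dendritic cells, had 0 UMIs in Tc9 and 44 in Tc1, all in 1 cell. H2-Eb1 had 83.8% and Spi1 63.2% of the Tc1 UMIs in 1 cell. Csf2 had 13 UMIs in Tc9 and 23 in Tc1 (log2 of CPM -3.22, -4.33 to -2.18), with 78.3% of the Tc1 UMIs in 1 cell.

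The receptor libraries show which Ifng+ type 2+ cells share a clone with other cells. A productive T cell receptor beta chain (TRB) was read in 51 of 104 Ifng+ type 2+ cells of Tc9 and 22 of 31 of Tc1. At least 2 TRB chains, which a doublet or a cell with 2 rearranged alleles gives, were read in 6 of 51 in Tc9 (11.8%, 4.44 to 23.9) and 1 of 22 in Tc1. Depth-matched Ifng-only, type-2-only and neither cells of Tc9 had 6.35%, 8.57% and 10.6%. Leaving out all cells with at least 2 chains, the co-detection ratio was 0.658 in Tc9 and 1.23 in Tc1. The invariant NKT rearrangement TRAV11 with TRAJ18 was read in 1 of 33 Ifng+ type 2+ cells with an alpha chain in Tc9 and 1 of 17 in Tc1. It was read in 0 Ifng-only and type-2-only cells, and in 0 of 728 and 2 of 372 neither cells.

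Ifng+ type 2+ cells mostly belonged to clones that also held other cells of the gate. A clonotype was defined by the V and J genes and the CDR3 bases of 1 alpha (TRA) and 1 beta chain, and 26 Ifng+ type 2+ cells of Tc9 and 14 of Tc1 had such a pair. They fell into 21 and 11 clonotypes, of which 18 and 8 held other gate cells too. In Tc9, 11 of the 21 held Ifng-only and type-2-only cells together, 3 held Ifng-only but no type-2-only cells and 2 the reverse, and in Tc1 the numbers were 2, 1 and 2 of 11. Of Ifng+ type 2+ cells with a pair, 88.5% in Tc9 and 78.6% in Tc1 were in clonotypes of at least 2 gate cells. That share was 75.2% and 48.2% for Ifng-only, 90.2% and 71.4% for type-2-only, and 73.4% and 40.1% for neither cells.

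**Figure D5:**
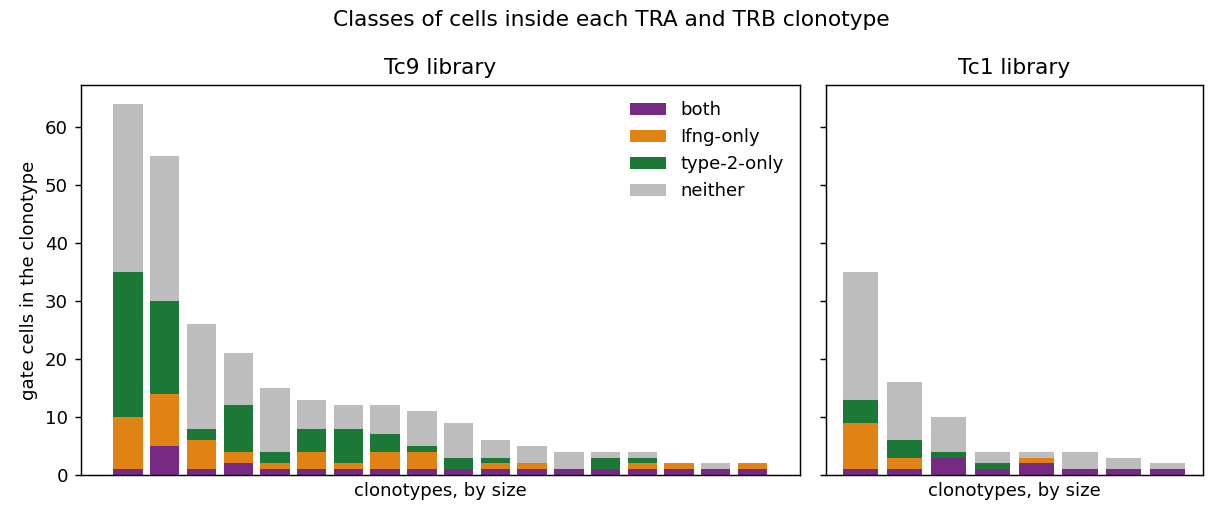
Number of gate cells in each class (purple Ifng+ type 2+, orange Ifng-only, green type-2-only, grey neither) inside each TRA and TRB clonotype that holds an Ifng+ type 2+ cell and at least 1 other gate cell, by size, in Tc9 (left, 18 clonotypes) and Tc1 (right, 8 clonotypes). The largest held 64 gate cells in Tc9 and 35 in Tc1, with all 4 classes present in each.

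The 4 clonotypes with at least 2 Ifng+ type 2+ cells are printed as CDR3 bases, 5′ to 3′, to show the rearrangements that identify these clones. Capitals mark the bases between the first and the last codon of the CDR3.
Tc9 clonotype A alpha: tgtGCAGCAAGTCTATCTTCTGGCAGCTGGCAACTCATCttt
Tc9 clonotype A beta: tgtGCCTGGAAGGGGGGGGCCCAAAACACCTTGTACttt
Tc9 clonotype B alpha: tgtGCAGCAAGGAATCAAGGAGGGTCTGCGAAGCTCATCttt
Tc9 clonotype B beta: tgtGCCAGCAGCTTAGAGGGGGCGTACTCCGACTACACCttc
Tc1 clonotype C alpha: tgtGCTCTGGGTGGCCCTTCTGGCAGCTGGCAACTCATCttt
Tc1 clonotype C beta: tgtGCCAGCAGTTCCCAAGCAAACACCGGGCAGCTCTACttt
Tc1 clonotype D alpha: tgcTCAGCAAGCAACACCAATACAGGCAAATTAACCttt
Tc1 clonotype D beta: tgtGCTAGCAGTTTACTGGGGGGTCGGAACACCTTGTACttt

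Clonotype A (TRAV7D-2 and TRAJ22 with TRBV31 and TRBJ2-4) held 55 gate cells in Tc9, of which 5 were Ifng+ type 2+, 9 Ifng-only, 16 type-2-only and 25 neither. Clonotype B (TRAV14N-3 and TRAJ57 with TRBV3 and TRBJ1-2) held 21, as 2, 2, 8 and 9 in the same order of classes. A further clonotype of Tc9 had the beta chain of B with the alpha genes TRAV21-DV12 and TRAJ53 and held 12 cells, as 1, 1, 6 and 4, so clones with 2 alpha chains can be counted as more than 1 clonotype. Clonotype C (TRAV6N-7 and TRAJ22 with TRBV15 and TRBJ2-2) held 10 gate cells in Tc1, as 3, 0, 1 and 6, and clonotype D (TRAV5-1 and TRAJ27 with TRBV17 and TRBJ2-4) held 4, as 2, 1, 0 and 1. As the plot of clonotypes shows, cells of 1 clone were spread over the classes in Tc9. The 3 largest clonotypes with an Ifng+ type 2+ cell there held Ifng-only and type-2-only cells together.

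Clonotypes were also sorted by the cytokine classes of their cells. Whether the split below differs from that of random draws at these clonotype sizes was not tested. Of 77 Tc9 clonotypes with at least 3 gate cells, 24 held Ifng-only and type-2-only cells, 27 held Ifng-only but no type-2-only cells, 14 the reverse and 12 neither kind. Of these 77, 15 held Ifng+ type 2+ cells, and 11 of the 15 held both other kinds. When the expected co-detection was summed inside TRB clonotypes in place of depth bins, in cells with exactly 1 TRB chain, Tc9 had 45 Ifng+ type 2+ cells against 55.1 expected, a ratio of 0.817 (0.596 to 1.09). In the same cells with depth bins the ratio was 0.568 (0.414 to 0.760). Tc1 had 21 against 18.8 inside clonotypes (1.11, 0.690 to 1.70), and 1.63 (1.01 to 2.49) with depth bins. A clonotype of 1 gate cell adds equally to observed and expected, which pulls the ratio toward 1. In Tc9 44 of the 45 cells were in TRB clonotypes of at least 2 gate cells, and in Tc1 16 of the 21. Depth was not matched inside clonotypes, so the ratios with and without depth bins are not like for like. These alternatives were chosen after seeing the data, and the intervals of the ratios overlap in each library.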

How the data were processed

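The RNA values are counts of UMIs per gene and barcode, made with Cell Ranger 7.0.0 per the submitters' processing notes and deposited by the authors as filtered matrices; receptor contigs with V and J genes, CDR3 bases and UMI counts were deposited by the authors too. Barcodes under 500 genes or over 10% mitochondrial UMIs were dropped, and no doublet caller was run. The cell rule, the gene lists and the comparisons were chosen with earlier results of these data known. Expected co-detection was summed over 10 bins of total UMIs. Classes were matched 1 for 1 on total UMIs, and 8 sums (4 classes in 2 libraries) were fitted in edgeR 4.0.16 (R 4.3.3) with TMM factors and filterByExpr, calling genes at an adjusted p under 0.05. The step was run on simulated counts in which the libraries differed in total counts only. That run cannot show how it performs with libraries of different treatments as replicates. DESeq2 1.42.0 was an alternative. Genes of the rule (15) and receptor and immunoglobulin segment genes were left out of the test (656 in all). CPM are per all UMIs of a sum. Genes were named by rule: the 10 highest and 10 lowest called ratios of each class comparison with the same sign in both libraries, the 8 highest and 8 lowest Tc9 over Tc1, up to 4 members of each list by smallest p, and a set list of cytokine and lineage genes. The remaining calls and the genes beside the type 2 locus were named after their values were seen. Positions are from the RefSeq table of GRCm38.p6, matched by symbol. Intervals and floors (3 counts) cover counting error only, since cells and UMIs of 1 library are not independent replicates. Python 3.11.15, numpy 2.4.6, pandas 2.3.3, scipy 1.17.1 and matplotlib 3.10.9 were used.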

Additional observations from a re-analysis of the deposited data

Results flagged for a closer look

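The following values lay on opposite sides of independence, or of 0, in the 2 libraries. None of these differences was tested, since each group has 1 library. Co-detection of Ifng and type 2 cytokines was 0.669 of the expected number in Tc9 and 1.21 in Tc1. For Ifng and Il4 it was 0.684 in Tc9 and 1.68 in Tc1, a pair for which the intervals exclude 1 on opposite sides. Type 2 cytokines met Tnf at 0.689 in Tc9 and 1.30 in Tc1, Tbx21 at 0.839 and 1.05, and Ccl5 at 0.611 and 1.07. Ccl5 in Ifng+ type 2+ over Ifng-only cells had a log2 ratio of -1.55 in Tc9 and 0.96 in Tc1, where 35.4% of its UMIs in Ifng+ type 2+ cells came from 1 cell.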

How the results depend on the processing

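The co-detection ratio of Tc9 lay between 0.556 and 0.817 in all settings run, and its interval reached above 1 inside TRB clonotypes alone (0.817, 0.596 to 1.09). The Tc1 ratio lay between 0.778 and 1.63, falling under 1 only where 2 UMIs of each kind were asked for (0.778, from 4 cells). The share of the gate was 0.662% in Tc9 and 1.22% in Tc1 after thinning, and 0.699% and 0.371% at 2 UMIs of each kind, since fewer UMIs leave fewer cells that meet the rule.

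The counts of called genes depended strongly on the setting. Against Ifng-only cells, 10 genes became 23 in unmatched cells, 24 without cells of 10 or more H2-Aa UMIs, 28 without the highest cell of each gene, 62 with no low-count filter and 2 with DESeq2. Against type-2-only cells, 23 became 10 in the second matched set, 10 without cells of 2 or more TRB chains, 8 at 2 UMIs of each kind, 37 without H2-Aa cells, 82 with no filter and 8 with DESeq2. The causes were not tested.

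Among values of single genes in the class comparison, 496 kept direction and side of the threshold, 17 newly passed, 103 no longer passed and 27 changed sign. Against Ifng-only cells, the log2 ratio in Tc1 alone was -0.023 for Ccl1, -0.37 for Gata3, -0.31 for Tbx21, -0.76 for Tnf, -0.023 for Stat4, 0.96 for Ccl5 and -0.61 for Il4ra, and in Tc9 alone -0.021 for Ifngr1. At 2 UMIs of each kind it was -0.84 for Tnf, 0.21 for Il12rb2, -0.029 for Stat4, 0.96 for Ccl5 and -0.16 for Icos. In unmatched cells it was -0.39 for Tnf, -0.019 for Stat4, -0.0011 for Pdcd1 and -0.00028 for Icos. Tnf stood at -0.36 in the second matched set and -0.032 with DESeq2, and Stat4 at -0.0054 without shared TRB chains. Against type-2-only cells, the second matched set gave 1.22 for Igfbp4, -0.056 for Il2, -0.80 for Csf2, -0.11 for Cd40lg and -0.41 for Il4ra. Unmatched cells gave -0.14 for Csf2, -0.081 for Cd40lg and -0.014 for Il4ra, and 2 UMIs of each kind gave 0.49 for Hilpda and -0.83 for Tnf. Hbb-bs stood at 0.61 without haemoglobin cells and 0.13 without the highest cell, and Tc1 alone gave -0.27 for Il2 and -0.46 for Tnf. Nr4a1 stood at -0.018 without shared TRB chains, -0.034 without H2-Aa cells, -0.026 without the highest cell and -0.18 in Tc9 alone. Without cells that had a myeloid UMI, the Tc9 over Tc1 ratio of Nr4a1 was -0.58.

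The class comparison has library as a block, and the ratios in Tc9 alone and Tc1 alone leave out 1 of its 2 libraries, with no test. Between groups the labels carry no replicate numbers, and each group has 1 library. The Tc9 over Tc1 ratio of Tbx21 was 0.29 after thinning. The 31 Tc1 cells and 175820 UMIs limit what Tc1 alone can show, and most cells rest on 1 UMI of 1 kind.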
